A study of Mus musculus with 2 samples.

Results

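The microRNA miR-574 was described here through its mature arms, mmu-miR-574-5p and mmu-miR-574-3p, in cultured vascular smooth muscle cells of the mouse. The members were the 2 rows that carry these names among the 1909 mature microRNAs in each deposited table, and both rows were present in both tables. They were selected on their raw counts in these same libraries, scaled to each total, and on the difference in arm share, so their levels, ratios and shares are given as a description, with no test. The db/db library came from smooth muscle cells of diabetic mice that carry the leptin receptor mutation on both alleles, given in the labels as strain BKS.Cg-m+/+Leprdb/J. The db/+ library came from the same cell type of control mice, labelled Lepr+/-, which carry the mutation on 1 allele. In both groups the cells were taken from the thoracic aorta of males aged 10 to 12 weeks and were cultured in DMEM/F-12 that held fetal bovine serum at 10%, so the libraries describe cultured cells and not the vessel wall. Each group had 1 library, and the sources used here do not give the number of mice behind each culture. A difference between the libraries therefore has no replicate check, and a difference between the genotypes could not be tested.

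A microRNA gene is transcribed as a hairpin, from which a duplex of a 5p and a 3p arm is cut. One arm is usually loaded into an Argonaute protein as the guide, and the other, the passenger, is usually degraded. Bases 2 to 8 of the loaded arm, the seed, pair with messenger RNAs, so a hairpin whose arms are both loaded can act on separate sets of targets. The 5p arm of miR-574 is unusual in being built from alternating G and U, and in human lung cancer cells it has been described as binding the RNA-binding protein CELF1 through this element. In the mouse heart both arms have been studied as regulators of cardiac remodelling.

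The hairpin and its arms are shown because the results turn on how the counts of 1 precursor divide between them. In the hairpin the capitals mark the mature arms, and in each arm they mark the seed. All sequences are those of RefSeq on GRCm38.p6, the assembly also called mm10, which the submitters' processing notes name.
Mir574 hairpin: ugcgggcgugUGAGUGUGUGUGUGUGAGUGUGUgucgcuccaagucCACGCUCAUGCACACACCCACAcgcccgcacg
miR-574-5p: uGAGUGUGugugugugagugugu
miR-574-3p: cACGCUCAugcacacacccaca

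The hairpin is 78 bases long and lies on the plus strand at chr5:64970318-64970395. The 5p arm, 23 bases long, lies at chr5:64970328-64970350 and the 3p arm, 22 bases long, at chr5:64970364-64970385. In GENCODE M21 the precursor gene Mir574 (ENSMUSG00000077042.2) lies in intron 1 of Fam114a1 (ENSMUSG00000029185.14), on the same strand. It starts 174 bases after exon 1 ends and 247 bases after the host gene starts. Host messenger RNA was not measured in these libraries. Hairpins were compared where both arms together reached 50 counts in each of the libraries, which 204 did. The nearest of them on chromosome 5 was miR-702, at a distance of 72021 kb.

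The arms are near mirror images in composition. In the 5p arm 21 of 23 bases were G or U (91.3%), and in the 3p arm 18 of 22 were A or C (81.8%). The predicted minimum free energy fold of the hairpin paired 20 bases of each arm with the other arm, at -55.6 kcal per mol. At the 5′ end of the 5p arm 3 of the first 4 bases were paired in this fold, and at the 5′ end of the 3p arm all 4 were, with 2 G-C pairs at either end. The 5p arm starts with U and the 3p arm with C. In the RefSeq table, which gave a mature sequence for 1623 of the 1909 names, no other name shared the seed of either arm.

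The alternating G and U run of the 5p arm was 13 bases long. Only 2 other names with a sequence in the table held a run of at least 10 bases, and they are shown beside it with the run in capitals.
miR-574-5p: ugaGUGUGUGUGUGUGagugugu
miR-1187: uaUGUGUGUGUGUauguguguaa
miR-3082-5p: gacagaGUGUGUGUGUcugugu
Both were close to absent, miR-1187 with 1 count in db/db and 3 in db/+ and miR-3082-5p with 2 counts in db/db and 1 in db/+. Of all names with a sequence, miR-3082-5p also held the longest stretch identical to the 5p arm, 12 bases. Of the 356 microRNAs that reached 50 counts in either library 286 had a sequence, and among these the longest stretch shared with the 5p arm was 9 bases, in miR-672-5p, which had 138 counts in db/db and 7 in db/+. The 3p arm shared at most 9 bases with any other name that had a sequence, among them miR-329-3p, with 5046 counts in db/db and 3574 in db/+. The sources used here do not say how a read that matched several microRNAs was counted. The miR-297, miR-466, miR-467 and miR-669 families are known for repeats. Of their 80 names, which pool 5p and 3p arms, 72 had no sequence in the table and were outside this search. A G and U repeat like that of miR-574-5p was therefore not shown for most of these names. Of the 28 of these names that reached 50 counts, 27 had ratios of db/db over db/+ below 1, beside 203 of all 356 microRNAs that reached 50 counts, and 1, miR-669c-5p, had a ratio above 1, at 1.04. Several of these names held identical counts, so the 28 stood for 19 distinct pairs of counts, of which 18 had a ratio below 1. Their ratios ranged from 0.100 to 1.04. Some of these names reached 50 counts in db/+ alone, among them miR-669d-5p, with 6 counts in db/db and 64 in db/+. For such names a ratio below 1 follows almost wholly from the floor, so this tally is no result about the families. Whether reads of these families were counted under miR-574-5p was not tested.

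Libraries were deep but concentrated on few microRNAs. The db/db library held 24295112 microRNA counts over 833 detected names and the db/+ library 25915732 over 881. Levels are given as CPM, counts per 1e6 microRNA counts. For a microRNA without counts the limit, set at 3 counts, was 0.123 CPM in db/db and 0.116 CPM in db/+. The 4 smooth muscle marker arms, from miR-143 and miR-145a, summed to 1567 CPM in db/db and 1656 CPM in db/+, and all 4 passed 50 counts. Endothelial markers, the arms of miR-126a, summed to 2.92 CPM in db/db and 0.270 CPM in db/+, 8 blood and immune markers to 12.8 CPM in db/db and 12.3 CPM in db/+, and 7 epithelial markers to 1.19 CPM in db/db and 0.463 CPM in db/+. Most of the blood and immune sum came from miR-486a-5p and miR-486b-5p. Each had 147 counts in db/db and 150 in db/+, so both may hold the same reads. Of the other blood and immune markers miR-451a had 0.576 CPM in db/db and 0.656 CPM in db/+. No count was found in either library for miR-144-3p, miR-142a-3p and miR-223-3p. The part of these low signals in the values of miR-574 was not tested. Striated muscle markers summed to 2833 CPM in db/db and 2509 CPM in db/+, nearly all from miR-206-3p, while miR-133b-3p, miR-208a-3p and miR-208b-3p had no count.

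The level of miR-574-5p was higher in the db/db library, and that of miR-574-3p was nearly alike in both. For miR-574-5p, 703 counts were found in db/db and 448 in db/+. Scaled to the library totals these were 28.9 CPM in db/db (95% counting interval 26.8 to 31.2) and 17.3 CPM in db/+ (15.7 to 19.0), and the intervals did not overlap. The ratio of db/db over db/+ was 1.67 (exact conditional 95% interval 1.48 to 1.89), a log2 ratio of 0.74. Intervals cover the error of counting reads only, and they say nothing of the spread between mice or cultures. Reads are PCR copies, so for the RNA molecules sampled these intervals can be too narrow.

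For miR-574-3p, 545 counts were found in db/db and 626 in db/+. The levels were 22.4 CPM in db/db (20.6 to 24.4) and 24.2 CPM in db/+ (22.3 to 26.1), with overlapping intervals. The ratio was 0.929 (0.826 to 1.04), a log2 ratio of -0.11, and its counting interval held 1.

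Taken as 1 product, the arms of miR-574 had 1248 counts in db/db and 1074 in db/+, or 51.4 CPM in db/db (48.6 to 54.3) and 41.4 CPM in db/+ (39.0 to 44.0). The ratio of the sum was 1.24 (1.14 to 1.35). In CPM the sum was 9.93 higher in db/db, made up of 11.6 more on the 5p arm and -1.72 on the 3p arm. Of the arms, the 5p arm was the one with the higher level in db/db.

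**Figure D1:**
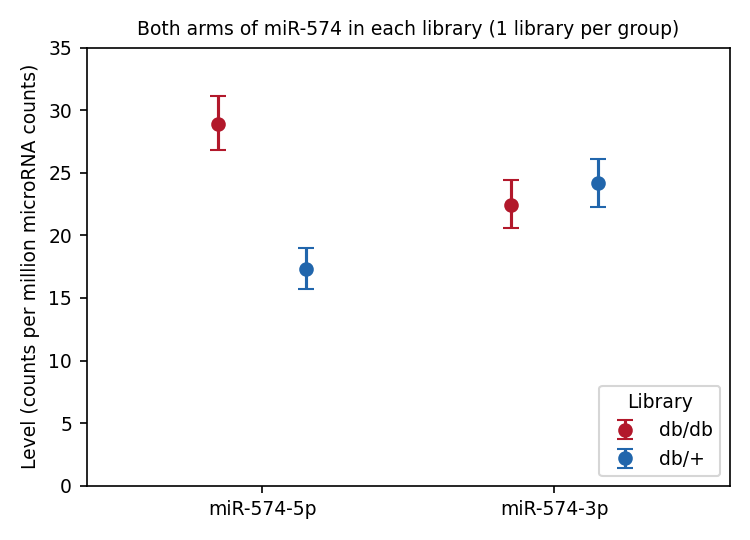
Level of each arm of miR-574 in CPM (vertical axis) in the db/db library (red) and the db/+ library (blue), with exact Poisson 95% counting intervals as bars and 1 library per group. The 5p arm stands at 28.9 CPM in db/db and 17.3 CPM in db/+ with separate bars, and the bars of the 3p arm, at 22.4 CPM in db/db and 24.2 CPM in db/+, overlap.

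Neither arm passed a 2-fold difference. Of the 356 microRNAs past 50 counts in either library, 16 (4.49%) were at least 2-fold higher in db/db and 48 (13.5%) at least 2-fold lower. At the looser size of 1.5-fold, set after the values were seen, 48 of 356 (13.5%) were higher, among them miR-574-5p, and 86 of 356 (24.2%) lower. By its ratio miR-574-5p was number 26 of the 356 from the top, and miR-574-3p was number 171. The median log2 ratio of all 356 was -0.14, close to the value of the 3p arm. By level, miR-574-5p was number 131 of all names in db/db and number 172 in db/+, and miR-574-3p was number 143 in db/db and number 148 in db/+. Together they made up 0.00514% of microRNA counts in db/db and 0.00414% in db/+.

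**Figure D2:**
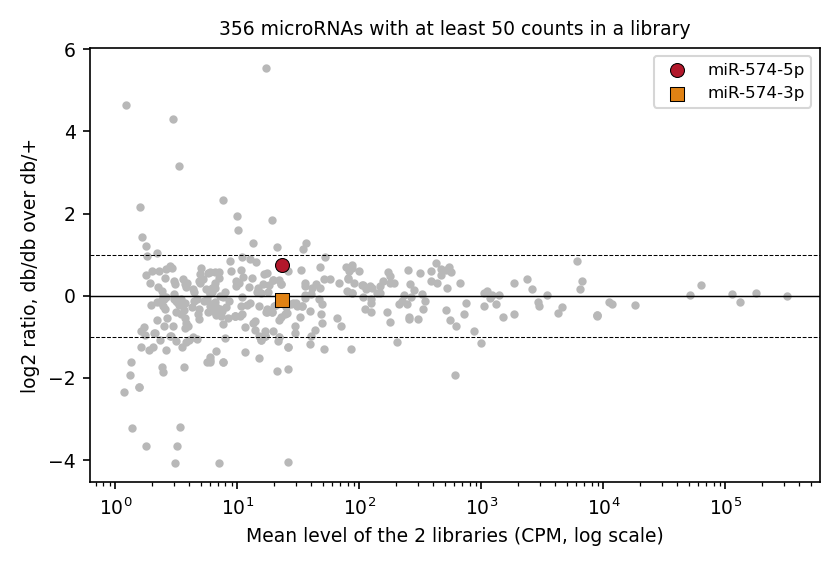
Log2 ratio of db/db over db/+ (vertical axis) against the mean level in CPM (horizontal axis, log scale) for the 356 microRNAs past 50 counts, each a grey point, with dashed lines at 2-fold. The 5p arm of miR-574 (red circle, 0.74) and the 3p arm (orange square, -0.11) have nearly the same mean level and both lie inside the dashed lines.

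The arm that was counted more often differed between the libraries. In db/db the 5p arm took 56.3% of the 1248 counts of miR-574 (exact binomial 95% interval 53.5 to 59.1), and in db/+ it took 41.7% of 1074 counts (38.7 to 44.7). The 5p to 3p ratio was 1.29 in db/db and 0.716 in db/+. The share was 14.6 percentage points higher in db/db (Newcombe 95% interval 10.6 to 18.6), and the odds ratio of 5p against 3p was 1.80 (exact 95% interval 1.52 to 2.13). A share is formed inside a library and needs no scaling between libraries. Counts of different sequences are not calibrated against each other within a library, so the share was read between libraries and not as a molar ratio of the arms.

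Arm shares of most hairpins differed far less between the libraries than that of miR-574. Over 204 hairpins the median absolute difference in 5p share was 0.917 percentage points, and 20 (9.8%) differed by at least 10 points, 10 of them (4.9%) with a higher 5p share in db/db. In 11 of the 204, miR-574 included, the difference was at least as large as that of miR-574. Among the 85 hairpins with at least 1000 counts in each library the median was 0.215 points and 5 differed by at least 10 points, namely miR-23b, miR-106b, miR-574, miR-299a and miR-299b. The last pair had nearly equal counts and may hold the same reads. Only miR-23b and miR-106b had counts at least as deep and a difference at least as large as miR-574. The 5p share of miR-23b was 18.8 points higher in db/db, and that of miR-106b was 18.6 points lower.

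The position of the share matters for this comparison, since a hairpin with nearly all counts on 1 arm has little room to move in percentage points. Of the 204 hairpins 28 had a mean 5p share between 30 and 70% over the libraries, a range chosen after the values were seen. Their median absolute difference was 11.4 points, 16 of the 28 differed by at least 10 points, and miR-574 was 1 of 10 with a difference of its own size or more. The share difference of miR-574 was thus large in points among all hairpins, but not among those with a mean share in this range. On the odds scale, 80 of the 204 hairpins (39.2%) differed at least as much as miR-574, itself included, as did 10 of the 28 (35.7%). There were 81 hairpins in which each arm alone reached 50 counts in either library. Of these, 16 (19.8%) differed at least as much as miR-574.

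Few hairpins had a different major arm, the one with more counts, in each library. Of the 204 hairpins, 176 had a mean 5p share outside 30 to 70% and so had little room to cross 50%. In 8 of 204 the 5p share lay on opposite sides of 50% in the libraries, and in 4 of these, miR-574, miR-23b, miR-132 and miR-351, the 5p arm was the major one in db/db. The other 4 were miR-106b, miR-1306, miR-299a and miR-299b. For miR-132 the counting interval of the share held 50% in db/db (41.9 to 63.7%, from 87 counts). In db/+ it held 50% for miR-1306 (44.3 to 57.4%), miR-299a (48.8 to 54.8%) and miR-299b (48.8 to 54.7%). The different major arm of these hairpins was therefore not separated from counting error. For miR-574, miR-23b and miR-106b the interval in each library excluded 50%.

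**Figure D3:**
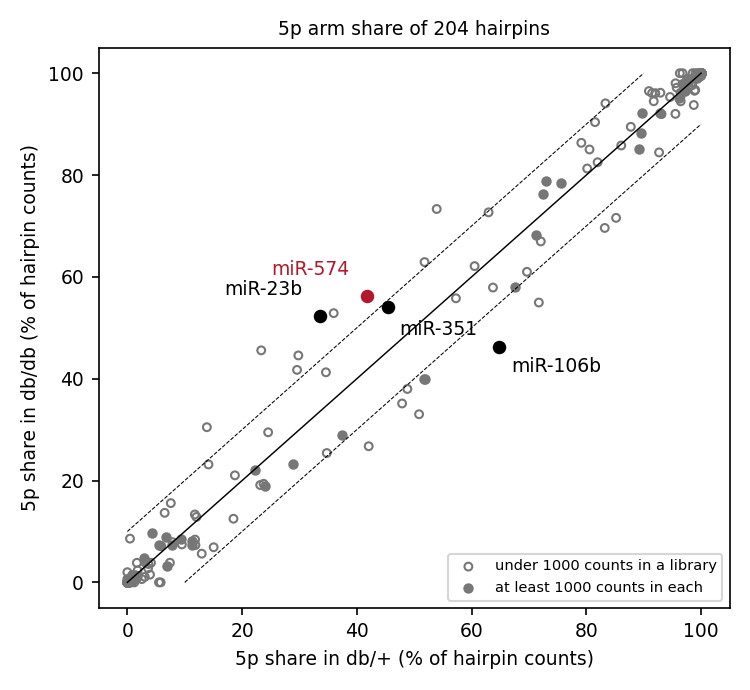
5p share of hairpin counts in db/db (vertical axis, %) against db/+ (horizontal axis, %) for 204 hairpins, with filled points for at least 1000 counts in each library, a solid line of equal shares and dashed lines at 10 percentage points. Hairpins crowd near 0 and 100%, and miR-574 (red, 56.3% in db/db and 41.7% in db/+) lies above the upper dashed line next to miR-23b, with miR-106b below the lower one.

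The arms of miR-574 were also set against each other hairpin by hairpin. The same 81 hairpins were used. The ratios of the arms lay on opposite sides of 1 in 33 of the 81, with the 5p arm above and the 3p arm below in 17 and the reverse in 16. A 5p arm at least 1.5-fold higher in db/db beside a 3p arm below 1 was found in 3, miR-574, miR-23b and miR-92b. The 1.5-fold limit was set after the values were seen, and the counting interval of the 3p ratio of miR-574 held 1. That miR-574 met both limits is therefore a description only. In miR-23b the 5p ratio was 1.62 and the 3p ratio 0.741. In miR-92b the 5p arm had 207 counts in db/db and 147 in db/+, and the 3p arm 289 in db/db and 350 in db/+. The gap between the arms of miR-574 was 0.85 on the log2 scale, beside a median absolute gap of 0.47 over the 81. This gap restates the odds ratio given above and is no separate result. By the ratio of the summed arms miR-574 was number 43 of 204 hairpins from the top, at a log2 ratio of 0.31 against a median of -0.06.

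**Figure D4:**
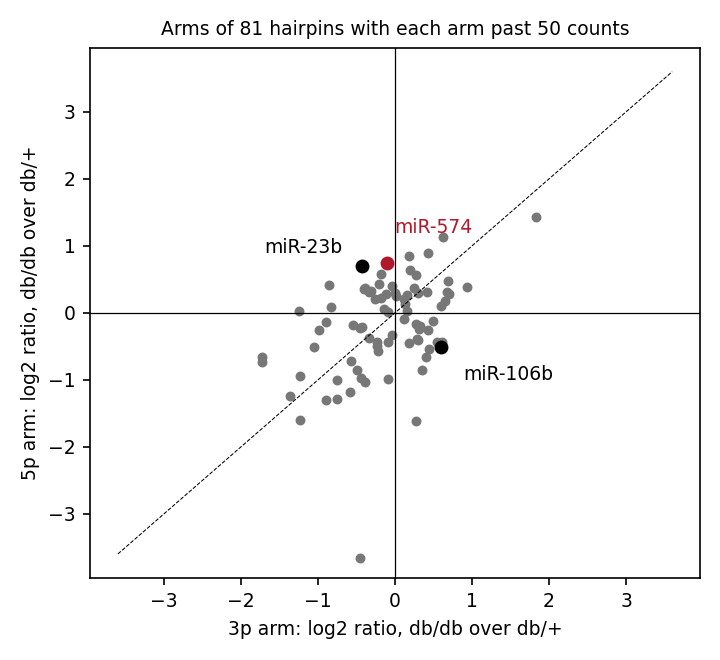
Log2 ratio of db/db over db/+ of the 5p arm (vertical axis) against that of the 3p arm (horizontal axis) for the 81 hairpins in which each arm reached 50 counts, with a dashed line where the arms have equal ratios. The point of miR-574 (red) lies above that line, with a 3p value near 0, miR-23b lies to its left and miR-106b on the other side of the line.

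First bases of the arms were compared because a 5′ U is known to be favoured by Argonaute. Both arms had a sequence in the table for 156 of the 204 hairpins. In 20 of these the 5p arm started with U and the 3p arm with C, as in miR-574, and in 19 of the 20 the 5p arm had the larger share on average over the libraries, with a median 5p share of 99.5%. The exception was miR-574 itself, with a mean 5p share of 49.0%. That mean hides a difference between the libraries, since the share was 56.3% in db/db and 41.7% in db/+. In db/db the 5p arm thus had more counts, so miR-574 was an exception only in db/+ and narrowly in the mean. These are shares of counts and not a molar ratio of the arms. Over all 156 hairpins the 5p arm had the larger share in 84, with a median 5p share of 63.5%. Where the 5p arm started with U and the 3p arm with any other base, it had the larger share in 33 of 43. With this wider grouping miR-574 was thus not the only exception. A difference of at least 10 points was found in 3 of these 20 hairpins and in 17 of all 156.

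The microRNAs with levels most like each arm were found by distance on log2(CPM + 0.5) over the 2 libraries. Closest to miR-574-5p was miR-125b-1-3p, at a distance of 0.26, with 24.9 CPM in db/db and 19.3 CPM in db/+. It was followed by miR-106b-3p, at 31.5 CPM in db/db and 20.9 CPM in db/+, miR-299a-3p, miR-299b-3p and miR-1188-5p, with ratios from 1.22 to 1.51, each below the 1.67 of miR-574-5p. Closest to miR-574-3p was miR-466f-3p, at a distance of 0.19, with 22.9 CPM in db/db and 27.7 CPM in db/+. The next were miR-199a-5p, miR-467d-3p, miR-467a-3p and miR-299b-3p, with ratios from 0.738 to 1.22. By arm share the hairpins most like miR-574 were miR-351, with a 5p share of 54.1% in db/db and 45.4% in db/+, miR-132, miR-23b, miR-154 and miR-3068. The share of miR-3068 was 55.8% of 95 counts in db/db and 57.3% of 110 counts in db/+, too few to give so small a difference a direction. Also shallow were miR-132, with 87 counts in db/db and 228 in db/+, and miR-154, with 213 in db/db and 222 in db/+. With 2 libraries such likeness is a description only.

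Against microRNAs known from vascular smooth muscle, miR-574 was of modest level. Of 36 names in that list 34 were in the tables and 29 had at least 50 counts in a library. In the db/db library 21 of the 29 were more abundant than miR-574-5p, beside 130 of all 356 microRNAs that reached 50 counts. The list had 2 of 29 members at least 2-fold higher in db/db, miR-146a-5p and miR-504-5p, beside 4.49% of all 356 microRNAs, and 4 at least 2-fold lower, miR-146b-5p, miR-132-3p, miR-18a-5p and miR-195a-5p, beside 13.5%. Of these, miR-504-5p reached 50 counts only in db/db, and miR-132-3p and miR-195a-5p only in db/+, so their direction followed almost wholly from the floor. The list was also chosen with earlier results of these data known, so its counts are a description only. Ratios in the list lay above 1 in 8 members and below 1 in 21, beside 153 above and 203 below over all 356, and its median log2 ratio was -0.33 beside -0.14. At least 1.5-fold higher, as miR-574-5p was, were 4 of the 29, beside 13.5% of all, and at least 1.5-fold lower were 9, beside 24.2%. Besides miR-146a-5p and miR-504-5p, the higher ones were miR-10a-5p, from a Hox cluster, with 7769 CPM in db/db and 4329 CPM in db/+, a ratio of 1.79 (1.78 to 1.81), and miR-1a-3p, a muscle microRNA, with 68.5 CPM in db/db and 35.5 CPM in db/+, a ratio of 1.93 (1.78 to 2.09). Apart from miR-10a-5p, the leading members by level had ratios of 0.860 for miR-29a-3p, known to target collagens, 0.706 for miR-21a-5p, raised in injured vessels, 1.01 for miR-125b-5p, 0.906 for miR-221-3p, which promotes growth, and 0.699 for miR-34c-5p of the p53 response.

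The size of the 5p ratio, but not its direction, depended on how the libraries were scaled. Other scalings raised every log2 ratio by 0.06 to 0.10. The ratio of miR-574-5p was then between 1.74 and 1.79 and that of miR-574-3p between 0.967 and 0.993, including the deposited normalized reads, where miR-574-5p had 748 reads in db/db and 421 in db/+ and miR-574-3p had 580 in db/db and 588 in db/+. A scaling moves all ratios alike, so the contrast between the arms is the same under each.

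**Figure D5:**
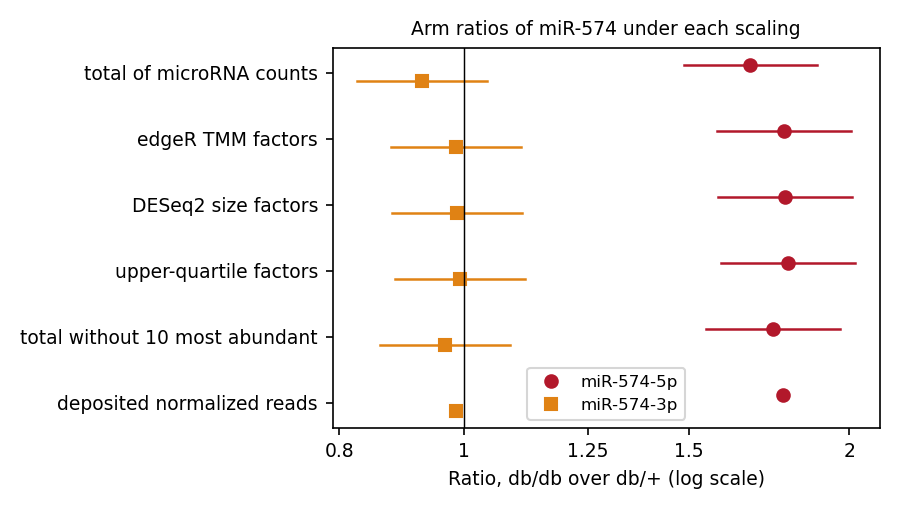
Ratio of db/db over db/+ (horizontal axis, log scale) of miR-574-5p (red circles) and miR-574-3p (orange squares) under 6 scalings of the libraries, with exact conditional 95% counting intervals as lines, not drawn for the deposited normalized reads. The 5p points lie between 1.67 and 1.79 and the 3p points between 0.929 and 0.993, and both arms shift together from 1 scaling to the next.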

How the data were processed

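Small RNA of cultured aortic smooth muscle cells was sequenced in 1 db/db and 1 db/+ library. Per the labels' protocols RNA was extracted on Qiagen columns and libraries followed a standard Illumina protocol. Novoalign, edgeR and mm10 are named in the submitters' processing notes, with no roles or versions. Each deposited table held, per the file headers, the raw read count of every mature microRNA and its TMM-normalized reads. Since those normalized reads were deposited as whole numbers, they were treated as a score and used in 1 alternative scaling only. The sources used here do not give trimming, mismatch limits or how a read with several matching microRNAs was counted.

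Counts were scaled to the library total (CPM). Intervals were exact conditional for ratios, Poisson for levels, Clopper-Pearson for shares and Newcombe for their difference, all at 95% and for counting error only. Log2 ratios had 0.5 counts added. With 1 library per group no model was fitted, and p-values are absent. Differences were counted by size, at 50 counts in a library for microRNAs and 50 over both arms in each library for hairpins. Named microRNAs were the arms of miR-574, the 5 nearest to each arm and to the hairpin, deeper hairpins with as large a share difference, names sharing the seed or a G and U run of 10 bases, and the leading members of the smooth muscle list. Others were named after their values were seen. The members and lists were chosen with earlier results of these data known. Scalings came from edgeR 4.0.16 and DESeq2 1.42.0, the fold from ViennaRNA 2.7.2, and the rest was computed in Python 3.11.15 with scipy 1.17.1 and statsmodels 0.14.6.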

Additional observations from a re-analysis of the deposited data

How the results depend on the processing

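The ratios of both arms and of their sum stayed within their counting intervals and on the same side of 1 under all 5 other scalings, the sum between 1.29 and 1.33. The arm share does not depend on scaling and 0.5 counts are small beside those of either arm, so the alternatives for the share and the odds ratio could not move them and are no check of them. Counts of hairpins past 10 points moved with the floor, to 36 at 10 counts, 72 with no floor and 5 at 1000 counts, and with the limit, to 46 at 5 points and 1 at 20 points. MicroRNAs at least 2-fold higher numbered 46 at a floor of 10 counts and 171 with no floor, those lower 91 and 259, and at 1.5-fold there were 48 higher and 86 lower. These moves follow from the thresholds themselves. The 1.5-fold, 5-point, 20-point and 1000-count settings were added after the data were seen. No paired analysis was possible because there was only 1 library in a group, and without either library no comparison is left.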

Other observations

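Arm shares of the deeply counted hairpins that use both arms moved in both directions. In all, 9 such hairpins had at least 1000 counts in each library and a mean 5p share between 30 and 70%. Besides miR-574, the 5p share was higher in db/db for miR-23b and miR-351, and lower for miR-106b, miR-299a, miR-299b, miR-17, miR-28a and miR-485. The share of miR-17 was 58.1% in db/db and 67.6% in db/+, and that of miR-28a was 29.0% in db/db and 37.4% in db/+. The share of miR-485 was 68.1% in db/db and 71.3% in db/+. On chromosome 5, the hairpins of miR-25, miR-93 and miR-106b lie side by side on the minus strand, and only miR-106b of these had a share difference past 10 points. The 5p share of miR-25 was 7.26% in db/db and 7.75% in db/+, and that of miR-93 was 99.7% in db/db and 99.9% in db/+. Both thus had little room to move in points. The odds ratio of 5p against 3p, db/db over db/+, was 0.932 for miR-25, 0.473 for miR-93 and 0.467 for miR-106b. That of miR-93 rests on a 3p arm with 8 counts in db/db and 4 in db/+.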
